A study of Mus musculus with 20 samples.

Results

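Dermal fibroblasts of mouse dorsal skin were compared between control and Fgf5-/- mice by single-cell RNA sequencing in anagen, when hair follicles grow. Members were chosen by their counts of 9 genes. A cell counted as a fibroblast when Col1a1, Col1a2 and Col3a1 together made up at least 50 of every 10000 of its UMIs (unique molecular identifiers, 1 per captured RNA molecule). It also had to hold at most 1 UMI of the papilla genes Corin, Rspo3, Wif1 and Hhip together, and Krt14 and Krt5 together had to stay under 50 per 10000. The rule was met by 786 of 25611 kept cells. These were 338 of 14156 control cells, or 2.39% (95% exact binomial interval 2.14 to 2.65), and 448 of 11455 mutant cells, or 3.91% (3.56 to 4.28). The log2 ratio of the shares was 0.71 (0.50 to 0.92). The source is labelled as dorsal epidermis, a layer without fibroblasts of its own, so the share is no measure of how many fibroblasts the dermis held.

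Both groups of mice carried Nfatc1-CreER, a tamoxifen-inducible recombinase driven by Nfatc1, a gene of hair follicle bulge stem cells, with the labelled R26R and mTmG reporter alleles. The 16 listed mutant samples came from mice that were Fgf5-/- in addition, and the 4 listed control samples from mice without that genotype. Tamoxifen was given for 3 days in both groups, from postnatal day 21 or 22 in controls and from postnatal day 23 or 24 in mutants, so its start moved with genotype, and the 2 cannot be told apart. The samples of each group were pooled in 1 matrix with no key from cells to animals. Each group was therefore 1 library, no difference between groups was tested, and every interval below covers counting error only.

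Dermal fibroblasts make and remodel the collagen fibres, proteoglycans and elastic fibres of the skin. They also release growth factors, BMP and Wnt antagonists and cytokines that act on the follicle, on vessels and on immune cells. Fgf5 is a secreted growth factor of the follicle that is known to promote the end of anagen, and Fgfr1 is its main receptor in the surrounding mesenchyme. Fgf5 itself was hardly measured in the fibroblasts, with 0 UMIs in control cells, which allows up to 2.49 counts per 1000000 UMIs (CPM), and 1 UMI in mutant cells, 0.417 CPM (0.0106 to 2.32). T or NK cells of the same libraries, which should lack Fgf5, read 6.55 and 5.32 CPM.

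The fibroblast label was borne out by most of the listed fibroblast genes that the rule did not use. Dcn, the collagen-binding proteoglycan decorin, read 11810 CPM in control and 10915 CPM in mutant fibroblasts. Lum, the related lumican, read 1796 and 1217 CPM, and Pi16 1064 and 638 CPM. In T or NK cells Pi16 read 1.06 CPM in control and 0 in mutant, and in papilla cells 51.2 and 63.4 CPM. Dpt read 289 and 315 CPM, beside 6.08 and 8.42 CPM in papilla cells. Pdgfra was the exception and did not set the fibroblasts apart from papilla cells. It read 167 and 144 CPM in fibroblasts, beside 134 and 200 CPM in papilla cells. The edge of the rule was gradual. In the 14 control and 19 mutant fibroblasts with 50 to 60 collagen UMIs per 10000, Dcn read 8011 and 5165 CPM, and in the 22 and 18 cells just outside, with 40 to 50, it read 1779 and 3040 CPM.

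The fibroblasts gave 1479662 UMIs in the control and 2396710 in the mutant library, with medians of 3951 and 4717 UMIs per cell. The median mitochondrial share was 2.33% and 3.27%, and ribosomal protein genes made up 15.4% and 14.8% of UMIs. RNA of other cells was present and differed between libraries. The 5 melanocyte markers summed to 1151 and 2317 CPM, the 10 hair lineage keratinocyte markers to 794 and 286, the 4 red blood cell markers to 8212 and 5631, and the 5 suprabasal keratinocyte markers to 208 and 654, with none of these markers at 0. The 8 T or NK cell markers summed to 162 and 71.4 CPM. The 9 endothelial markers summed to 18.3 and 14.6 CPM with 4 and 2 at 0, and the 9 markers of macrophages and related cells to 29.7 and 32.1 CPM with 4 and 1 at 0. The part of these RNAs in the ratios below was not tested, beyond leaving out the cells that held them. The libraries shared 59 cell barcodes, carried by 0 control and 6 mutant fibroblasts.

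UMIs were summed over the fibroblasts of each library, and 3311 genes at 50 CPM or more in either library were compared. A ratio was called large if it was at least 2-fold with the nearer interval bound beyond 1.5-fold. By that rule 126 genes (3.81%) were higher and 132 (3.99%) lower in the mutant library, 7.79% in all, around a median log2 ratio of -0.07. The balance depended on scaling. With TMM factors, which moved the median by 0.22, 254 genes were higher and 61 lower, and with median-of-ratios factors 147 and 100. Of the large ratios, 21 higher and 7 lower belonged to genes whose level in fibroblasts was under 10% of that in another cell group and may be free RNA.

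Cytokine and chemokine genes held the largest group of higher ratios. Of 18 compared genes of that list, 6 rose (33.3%, against 3.81% of all genes) and 1, Cxcl14, fell at a level that free RNA could give, and 15 lay above 0 (45.2% of all genes did), around a median of 0.45. The 6 were Lif and Il6, cytokines of the gp130 receptor family, Il6ra, the receptor chain for Il6, Csf1, the growth factor of macrophages, Ccl7, a chemokine for monocytes, and Ptgs2, the inducible enzyme of prostaglandin synthesis. The promoters of the genes with the largest ratios among the secreted products are shown because these genes moved together. They are the 250 bases before the RefSeq start (GRCm38.p6), with capitals marking matches on either strand to the NF-kB consensus or to the AP-1 motif TGANTCA. Of the 4 secreted genes, 3 had an entry, and Ccl7 had none.
Lif, chr11:4257318-4257567, plus strand: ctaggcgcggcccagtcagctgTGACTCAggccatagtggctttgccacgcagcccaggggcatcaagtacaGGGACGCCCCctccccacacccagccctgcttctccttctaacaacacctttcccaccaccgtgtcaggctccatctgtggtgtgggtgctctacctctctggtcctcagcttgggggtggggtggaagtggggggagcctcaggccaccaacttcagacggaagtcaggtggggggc
Il6, chr5:30012864-30013113, plus strand: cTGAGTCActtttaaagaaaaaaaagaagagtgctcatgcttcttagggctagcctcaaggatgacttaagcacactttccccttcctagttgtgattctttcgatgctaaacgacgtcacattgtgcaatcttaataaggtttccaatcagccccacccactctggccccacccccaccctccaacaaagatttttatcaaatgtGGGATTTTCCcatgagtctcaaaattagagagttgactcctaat
Csf1, chr3:107760470-107760719, minus strand: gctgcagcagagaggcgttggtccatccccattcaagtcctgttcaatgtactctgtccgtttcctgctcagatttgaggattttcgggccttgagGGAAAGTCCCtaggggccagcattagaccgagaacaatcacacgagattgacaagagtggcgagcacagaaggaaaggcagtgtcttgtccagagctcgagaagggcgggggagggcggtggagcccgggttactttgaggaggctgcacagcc
An NF-kB match began 178 bases before the start of Lif, 44 before that of Il6 and 154 before that of Csf1, and an AP-1 match 228 bases before Lif and 249 before Il6. Among all 32851 windows of that length, 7.25% held the NF-kB consensus and 6.75% the AP-1 motif. No match overlapped another in these windows, and a match is a description of letters, not of binding.

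Lif (ENSMUSG00000034394, chromosome 11, 4257557 to 4272514, plus strand, GRCm38) gave 17 UMIs in control and 270 in mutant fibroblasts, 11.5 CPM (6.69 to 18.4) against 113 CPM (99.6 to 127), a 9.81-fold ratio. Il6 (ENSMUSG00000025746, chromosome 5, 30013114 to 30019981, plus strand) rose from 53.4 CPM (42.3 to 66.5) to 210 CPM (192 to 229). Csf1 (ENSMUSG00000014599, chromosome 3, 107741048 to 107760469, minus strand) rose from 117 CPM (100.1 to 136) to 659 CPM (627 to 692), 5.63-fold. For each of these the intervals of the libraries lay far apart. Ccl7 (ENSMUSG00000035373, chromosome 11, 82045712 to 82047525, plus strand) rose from 464 CPM (429.6 to 499.6) to 1538 CPM (1489 to 1588). Its neighbour in function Ccl2, also a monocyte chemokine, read 2294 and 4327 CPM, a log2 ratio of 0.92 (0.86 to 0.97), which is short of the 2-fold limit. Ptgs2 (ENSMUSG00000032487, chromosome 1, 150100031 to 150108227, plus strand) rose from 18.2 CPM (12.03 to 26.5) to 151 CPM (136 to 168).

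More cells held these transcripts in the mutant library at equal depth. With 318 control and 429 mutant fibroblasts thinned to 1500 UMIs each, and 20 and 19 shallower cells left out, Csf1 was found in 12.6% and 32.4% of cells, against 25.2% and 47.3% unthinned. In T or NK cells, which should lack it, the thinned share was at most 0.47% at median depths of 2366.5 and 2020 UMIs. The thinned shares were 1.89% and 10.3% for Lif, 22.6% and 42.9% for Ccl7, 6.29% and 10.96% for Il6, and 2.20% and 8.86% for Ptgs2. In T or NK cells they were at most 0.524% for Lif, Ccl7 and Il6, and 1.14% and 1.36% for Ptgs2. No single cell carried the rise of any of the 5 genes: the cell with most UMIs held at most 14.9% of the mutant UMIs, for Ptgs2. Lif, Il6, Csf1, Ccl7 and Ptgs2 stayed large under all 17 alternatives tried, while Il6ra (37.8 against 83.5 CPM) had a log2 ratio of 0.02 when cells with markers of other types were left out.

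Of the genes of the list that did not pass the rule, Cxcl1, a neutrophil chemokine, read 770 and 952 CPM, a log2 ratio of 0.30 (0.20 to 0.41), and Nfkbia, the NF-kB inhibitor, read 2981 and 2195 CPM, -0.44 (-0.50 to -0.38). Receptors and signalling genes outside the list were among the 15 largest higher ratios. Il17ra, the interleukin 17 receptor chain, rose from 21.6 to 121 CPM, Irak3, an inhibitor of interleukin 1 receptor signalling, from 18.9 to 79.7, Tnfaip2, a gene induced by tumour necrosis factor, from 48.7 to 273, and Gbp2, an interferon-induced guanylate-binding protein, from 32.4 to 146. Gbp2 was the only one of 13 compared genes of MHC class I presentation and the interferon response with a large ratio. That is 7.69%, near the 7.79% of all genes. Ifitm3 read 1160 and 1297 CPM and B2m 911 and 872 CPM.

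**Figure D1:**
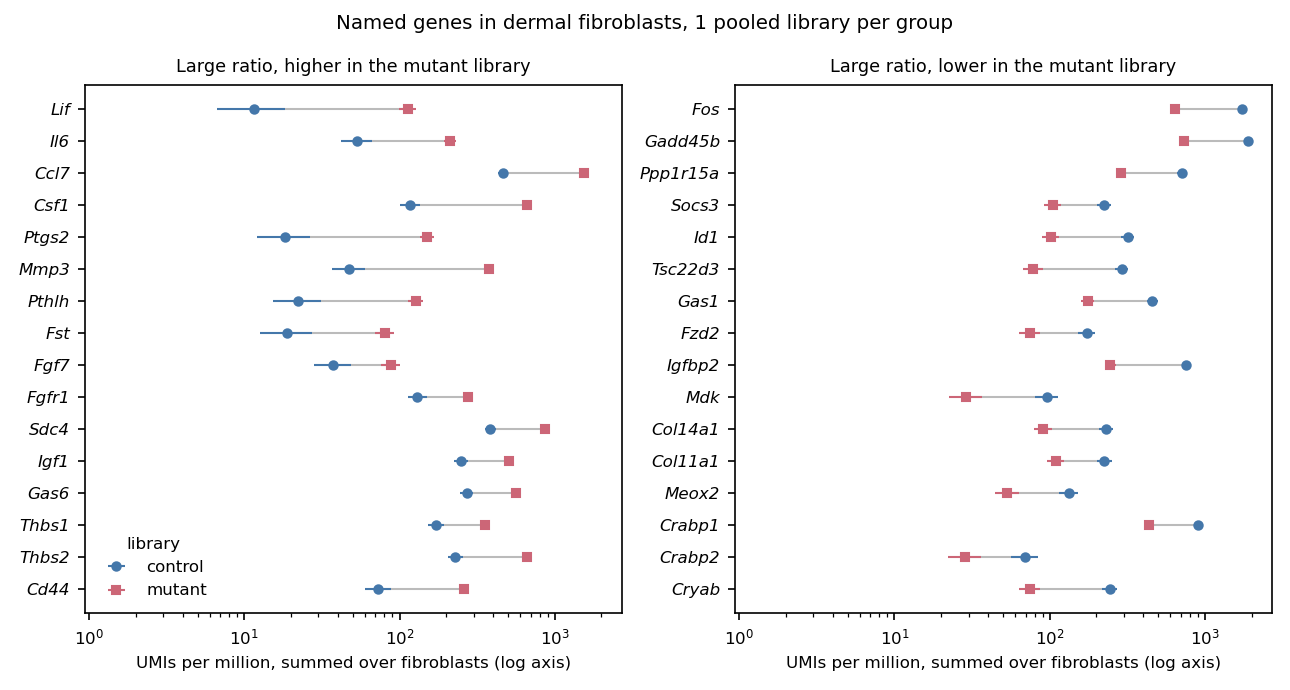
Level of 32 named genes in dermal fibroblasts of the control library (blue circles) and the mutant library (red squares), in CPM on a log axis; bars are exact 95% Poisson intervals for counting error. Each gene in the left panel lies higher in the mutant library, such as Lif (11.5 against 113) and Sdc4 (385 against 862). Each in the right panel lies lower, such as Fos (1728 against 643) and Cryab (243 against 74.3).

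Genes of growth factor signalling moved in both directions. Of 11 compared genes of fibroblast growth factors, their receptors, co-receptors and targets, 3 rose (27.3%, against 3.81% of all genes) and none fell by the rule, around a median of 0.13. Fgf7, the keratinocyte growth factor that signals from dermis to epithelium, rose from 37.2 CPM (28.0 to 48.4) to 87.6 CPM (76.2 to 100.3). Fgfr1 (ENSMUSG00000031565, chromosome 8, 25513654 to 25575718, plus strand) rose from 130 CPM (113 to 150) to 276 CPM (255 to 298), and Sdc4, a heparan sulfate co-receptor, from 385 CPM (354 to 418) to 862 CPM (825 to 899.6). Fgfr1 and Sdc4 stayed large under all 17 alternatives, whereas Fgf7 dropped to a log2 ratio of 0.73 when subclusters of the fibroblasts were weighted equally. The other receptors differed less: Fgfr2 read 54.1 and 62.2 CPM, Fgfr3 10.8 and 14.2, and Fgfr4 37.8 and 34.6. The co-receptors Sdc2 (152 and 88.5 CPM) and Gpc3 (156 and 101 CPM) had log2 ratios of -0.78 and -0.62.

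In the insulin-like growth factor list, 1 of 9 compared genes rose and 1 fell (11.1% each, against 3.81% and 3.99% of all genes). Igf1, a growth factor that fibroblasts and the papilla supply to the follicle, rose from 251 CPM (226 to 278) to 509 CPM (481 to 539). Its pooled ratio leaned on 1 subcluster, described below, since the log2 ratio of 1.02 was 0.39 without that subcluster. Igf1 was also higher within some other subclusters. Igfbp2, a binding protein that limits access to the growth factor, fell from 759 CPM (715 to 805) to 246 CPM (227 to 267), a log2 ratio of -1.62 (-1.77 to -1.48). Igfbp2 was uneven, with a thinned share of 17.3% and 13.99% of cells and 16.7% of the control UMIs in 1 cell. Among the other binding proteins, Igfbp5 read 1775 and 2367 CPM, Igfbp4 704 and 395, and Igfbp7 2150 and 1446.

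The BMP list had 2 higher and 1 lower gene of 10 compared (20% and 10%, against 3.81% and 3.99% of all genes). Fst, follistatin, which binds activin and BMP ligands, rose from 18.9 CPM (12.6 to 27.3) to 80.1 CPM (69.2 to 92.3). T or NK cells, which should lack Fst, read 45.9 and 63.2 CPM, so the control fibroblasts were below that background. Id1, a transcriptional regulator and direct target of BMP signalling, fell from 318 CPM (290.2 to 348) to 102 CPM (89.4 to 115). Id1 was found in 32.1% of thinned control and 10.0% of thinned mutant fibroblasts, while T or NK cells had 13.2% and 5.4%. The related Id3 read 1540 and 782 CPM with a log2 ratio of -0.98 (-1.07 to -0.89), and Id2 232 and 134 CPM with -0.79 (-1.02 to -0.57). Id1 stayed large under all 17 alternatives. Fst did not, at a log2 ratio of 1.13 without the cells that held markers of other types.

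All 11 compared Wnt pathway genes lay below 0 in the mutant library (54.8% of all genes did), around a median of -0.53, and 2 passed the rule (18.2%, against 3.99% of all genes). Fzd2, a Wnt receptor, fell from 174 to 74.3 CPM, a log2 ratio of -1.23 (-1.51 to -0.94), and Sfrp1, a Wnt inhibitor, fell from 65.6 to 23.4 CPM but was at a level that free RNA could give. Dkk2, another inhibitor, read 357 and 225 CPM, Fzd1 145 and 100.1, and Rspo1, a Wnt agonist, 112 and 80.9. Gas1, a co-receptor for hedgehog proteins, fell from 460 CPM (426 to 495) to 176 CPM (160 to 194). Of the TGF-beta list, 0 of 17 compared genes passed in either direction (7.79% of all genes did), around a median of 0.04. Tgfbi read 580 and 892 CPM, and the receptor Tgfbr2 264 and 247. Pthlh, a hormone-like factor of skin, rose from 22.3 to 127 CPM, beside 73.8 and 26.6 CPM in T or NK cells, and Gas6, the ligand of the TAM receptors that recognise dying cells, from 271 to 561 CPM. Mdk, the heparin-binding growth factor midkine, fell from 96.0 to 28.8 CPM.

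The collagens used by the rule can only be described. Col1a1 read 13347 CPM in control and 22581 CPM in mutant fibroblasts, Col1a2 14173 and 22783 CPM, and Col3a1 11140 and 14003 CPM, with log2 ratios of 0.76, 0.68 and 0.33. Of the 7 fibrillar collagens, 3 of which chose the cells, 6 lay above 0 (45.2% of all genes did) and none rose by the rule. That count and the list's median include the 3 collagens that chose the cells, so they are no separate result. Col5a2, which controls fibril diameter, read 722 and 896 CPM. Col11a1 was the exception and fell from 225 CPM (202 to 251) to 109 CPM (96.5 to 123). The median of 0.42 went with the subclusters: it was 0.14 without subcluster 0 and 0.06 without subclusters 0 and 8. Col14a1, a collagen that binds fibril surfaces, fell from 230.5 CPM (207 to 256) to 91.0 CPM (79.3 to 104), and Col6a1 read 776 and 782 CPM.

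None of 19 compared genes of collagen processing and crosslinking passed the rule (7.79% of all genes did), around a median of 0.26. Sparc, a collagen-binding glycoprotein, read 15706 and 15227 CPM, Serpinh1, the collagen chaperone, 1425 and 1686, and Adamts2, which trims procollagen, 563 and 1002. Among 39 proteoglycans and matrix glycoproteins the median was 0.01. Of these, 2 rose (5.13%, against 3.81% of all genes) and 1 fell (2.56%, against 3.99%). Thbs1 and Thbs2, the thrombospondins, rose from 172 to 358 and from 229 to 663 CPM, and Fbln7 fell from 52.0 to 18.8. Thbs1 was large under all 17 alternatives, and Thbs2 was at 0.97 without subclusters 0 and 8. Of 19 matrix proteases and inhibitors, 2 rose (10.5%, against 3.81% of all genes). Mmp3, stromelysin, rose from 47.3 CPM (36.9 to 59.8) to 376 CPM (351 to 401), and Plaur, the urokinase receptor, from 31.8 to 81.8. Mmp2 read 593 and 774 CPM and Timp2 1423 and 1446. Cd44, a hyaluronan receptor, rose from 73.0 to 261 CPM. Genes of endoplasmic reticulum stress and secretion gave 0 large ratios of 18 (7.79% of all genes had one). Of the 18, 15 lay above 0 (45.2% of all genes did), around a median of 0.34. Among them were Hspa5 at 1402 and 1944 CPM and Calr at 847 and 1272 CPM.

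Immediate early genes are switched on within minutes of a stimulus. Of 26 compared, 4 fell (15.4%, against 3.99% of all genes), none rose, and 19 lay below 0 (54.8% of all genes did), around a median of -0.49. Fos (ENSMUSG00000021250, chromosome 12, 85473890 to 85477273, plus strand), a subunit of AP-1, fell from 1728 CPM (1662 to 1796) to 643 CPM (611 to 676). Gadd45b, a stress-response gene, fell from 1884 CPM (1814 to 1955) to 738.5 CPM (704.5 to 774), Ppp1r15a, a phosphatase subunit of the integrated stress response, from 708 CPM (666 to 752.5) to 290 CPM (269 to 312), and Socs3, an inhibitor of cytokine signalling, from 224 CPM to 105 CPM. The AP-1 subunits Jun (1980 and 1039 CPM), Jund (1490 and 935) and Junb (1374 and 1009) had log2 ratios of -0.93, -0.67 and -0.45. At equal depth, Fos was found in 67.6% of control and 30.3% of mutant fibroblasts. Fos, Gadd45b and Ppp1r15a stayed large under all 17 alternatives, and Socs3 did not, at -0.72 without subclusters 0 and 8. Beside these values, the median mitochondrial share was 2.33% in control and 3.27% in mutant fibroblasts, and the part of RNA quality in the difference was not tested.

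The promoters of 2 of these genes are shown because Fos and Ppp1r15a fell together, the first encoding a part of AP-1 and the second holding the one match to the cyclic AMP response element TGACGTCA among the 4.
Fos, chr12:85473640-85473889, plus strand: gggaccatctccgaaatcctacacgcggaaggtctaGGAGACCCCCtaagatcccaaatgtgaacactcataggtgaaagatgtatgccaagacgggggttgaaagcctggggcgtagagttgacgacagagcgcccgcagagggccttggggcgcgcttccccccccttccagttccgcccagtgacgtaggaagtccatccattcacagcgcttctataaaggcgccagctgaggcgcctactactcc
Ppp1r15a, chr7:45526269-45526518, minus strand: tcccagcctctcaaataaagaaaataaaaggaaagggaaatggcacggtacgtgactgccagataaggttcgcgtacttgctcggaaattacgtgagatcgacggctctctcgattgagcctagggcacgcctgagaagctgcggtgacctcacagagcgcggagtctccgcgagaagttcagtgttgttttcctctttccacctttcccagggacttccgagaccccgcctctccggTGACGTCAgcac
Capitals mark the NF-kB consensus in Fos, which began 214 bases before the start, and the TGACGTCA match in Ppp1r15a, 12 bases before it. All 4 genes had an entry, none of the 4 windows held the AP-1 motif, and the windows of Gadd45b and Socs3 held none of the motifs searched. Among all windows, 1.55% held TGACGTCA.

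Of 14 compared genes of the heat shock list none passed the rule (7.79% of all genes did), around a median of 0.04. Hsp90ab1 read 2790 and 2884 CPM and Hspa8 2245 and 2280 CPM. Hspa1a read 2840 and 1846 CPM. Of 7 compared glucocorticoid-responsive and metallothionein genes, 1 fell by the rule (14.3%, against 3.99% of all genes). This was Tsc22d3, known as GILZ, which fell from 292 CPM (265 to 321) to 78.4 CPM (67.6 to 90.5). Its ratio stayed large under all 17 alternatives. Sgk1 also lay below 0, at 315 and 185 CPM, and the other 5 above, as Klf9 read 385 and 677 CPM, Cebpd 414 and 758, Mt1 1075 and 1499, and Mt2 466 and 813.

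Of 18 compared genes of fibroblast identity and position, 2 fell (11.1%, against 3.99% of all genes), none rose and 13 lay below 0 (54.8% of all genes did), around a median of -0.31. Meox2, a homeobox gene of mesoderm, fell from 132.5 CPM (115 to 152) to 53.4 CPM (44.6 to 63.5), and Hoxc6, which marks position along the body axis, from 56.8 to 21.3 CPM. Thy1 read 816 and 914 CPM and Cd34 673 and 814 CPM. The papillary, reticular and fascia lists had 1 large ratio each, of 8, 9 and 8 compared genes. These were 12.5%, 11.1% and 12.5%, against 7.79% of all genes. Crabp1, a retinoic acid-binding protein of papillary dermis and follicle mesenchyme, fell from 906 CPM (858 to 955) to 437 CPM (411 to 465), and its relative Crabp2 from 68.9 to 28.4 CPM. Neither kept a large ratio under each alternative, Crabp1 standing at -0.49 without subclusters 0 and 8. Gpx3, a secreted glutathione peroxidase in the reticular list, rose from 51.4 to 129 CPM, and Ackr3, a scavenger receptor for Cxcl12, from 81.8 to 167 CPM. Of the contractile and dermal sheath list none of 11 passed (7.79% of all genes did), and Acta2 read 202 and 262 CPM.

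**Figure D2:**
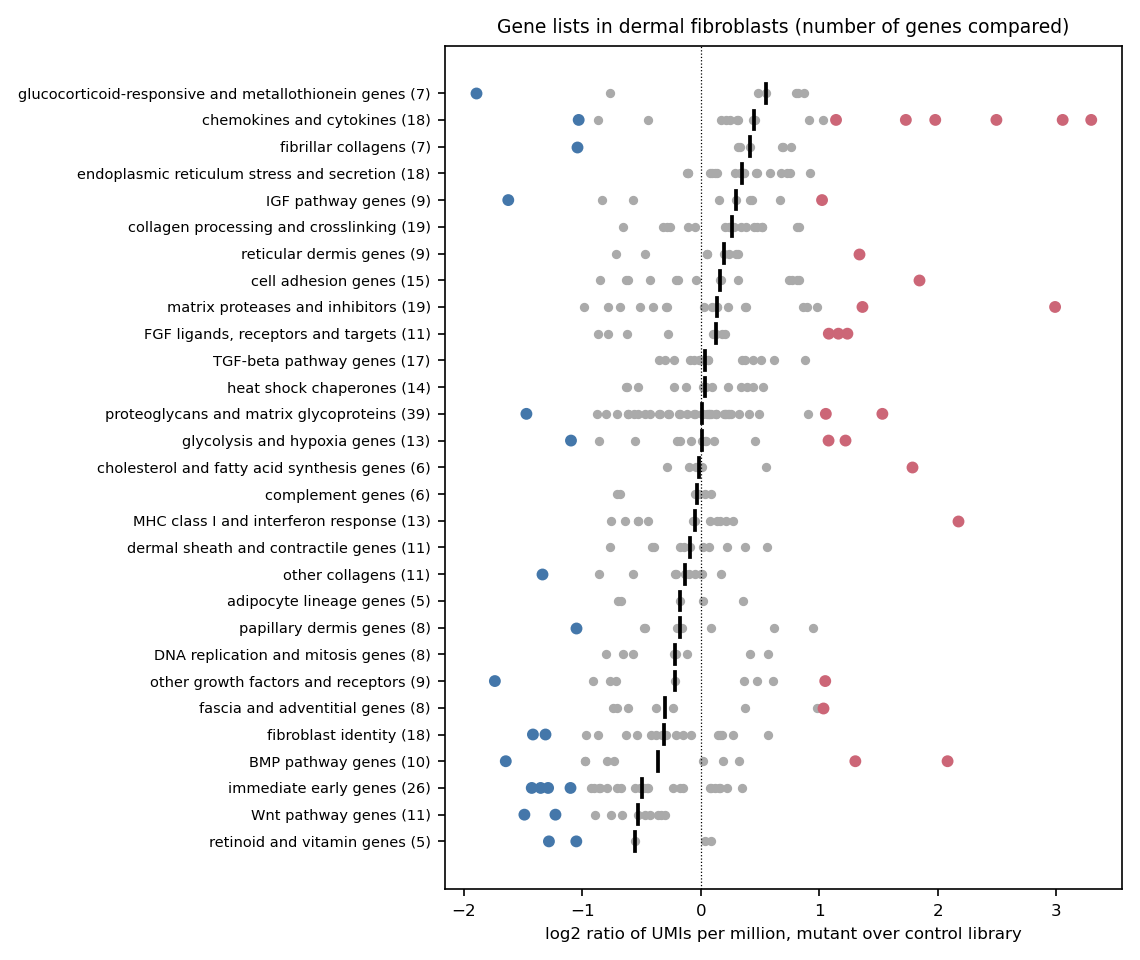
log2 ratio of CPM, mutant over control library, for the compared genes of 29 lists with at least 5 of them (number in brackets); each point is a gene, red and blue points have a large ratio upward or downward, grey points do not, and the black bar is the list's median. Chemokines and cytokines reach furthest to the right, and the Wnt list has all of its 11 genes left of 0.

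Several of the other largest ratios were of genes with no list. Lrrtm3, a leucine-rich repeat protein best known from synapses, rose from 7 to 362 UMIs, 4.73 CPM (1.90 to 9.75) against 151 CPM (136 to 167). Ddit4l, an inhibitor of mTOR signalling, rose from 8.11 to 73.0 CPM, Flrt1, a ligand of latrophilins and Unc5 receptors, from 12.8 to 63.8, Dhx40, an RNA helicase, from 29.1 to 136, and Scd1, a fatty acid desaturase, from 34.5 to 118.5. Among the lower ones, Hpgd, which inactivates prostaglandins, fell from 97.3 to 25.9 CPM, Cryab, a small heat shock protein, from 243 to 74.3, Aldh3a1, an aldehyde dehydrogenase, from 81.8 to 25.03, and Serpinb1a, an inhibitor of neutrophil proteases, from 61.5 to 16.7. Hmgn2 and Ftl1-ps1, at log2 ratios of -1.60 and -3.79, share their last 300 transcript bases with 13 and 16 other annotated genes, at 95% identity or more over at least 100 bases, and their counts are uncertain. Eno1, at -1.10, has 5 such copies. Gdpd3 gave 80 UMIs in control and 0 in mutant fibroblasts, at least 43.2-fold lower if 3 UMIs are taken as the limit of a count of 0. Gdpd3 and Ftl1-ps1 were lower in the mutant library in each other cell group compared, at log2 ratios of -4.29 and -4.63 in papilla cells, -3.38 and -4.14 in endothelial cells and -1.17 and -4.18 in all other cells. Whether both libraries were counted against the same annotation is not given in the sources used here.

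The green reporter of recombined cells and the sex-linked Xist were read as checks. eGFP read 116 CPM in control and 262 CPM in mutant fibroblasts, under the 415 and 625 CPM of T or NK cells and the 744 and 824 CPM of all other cells, so its level in fibroblasts was at or below the background. The tomato reporter was listed at 0 in both libraries. Xist, which is transcribed from the inactive X chromosome of female cells, read 1016 and 905 CPM.

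The same ratios were taken in papilla cells (718 control and 491 mutant cells), endothelial cells (209 and 131) and all other kept cells, with the difference between cell groups left untested because each group of mice was 1 library. These comparisons share both libraries with that of the fibroblasts and are set side by side only. Of the genes compared in each, 13.1% had a large ratio in papilla cells and 9.22% in endothelial cells. Ccl7 read 2.53 and 53.6 CPM in papilla cells, Thbs2 8.61 and 58.4, Il6 1.40 and 22.7, and Lif 1.12 and 13.8. Fibroblast genes were higher in mutant papilla cells too, with Dcn at 251 and 797 CPM and Col1a1 at 272 and 632 CPM, and the part of fibroblast RNA in those values was not tested. The 18 compared genes of the cytokine and chemokine list had a median log2 ratio of 1.51 in papilla cells. That median was 0.45 in fibroblasts and 0.11 in all other kept cells. The 18 were chosen by their level in fibroblasts only, and Lif, Il6 and Ccl7 were near 0 in control papilla cells. The medians are therefore no measure of where the rise was stronger, and the part of fibroblast RNA in the papilla median was not tested. Csf1 had a smaller ratio in papilla cells than in fibroblasts, 12.5 and 23.02 CPM, log2 0.88 (0.46 to 1.28). Mmp3 was near 0 there, at 0.936 and 2.25 CPM.

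Igf1 and Fst had large ratios of opposite sign in another cell group. Igf1 read 263 and 113 CPM in papilla cells, a log2 ratio of -1.23 (-1.38 to -1.07), against 1.02 (0.85 to 1.19) in fibroblasts. Fst read 55.2 and 18.1 CPM in endothelial cells, -1.61 (-2.61 to -0.74), against 2.08 in fibroblasts. Fgf7 was far more abundant in papilla cells, at 553.5 and 402 CPM, and its ratio there was -0.46 (-0.55 to -0.38). Among the lower genes, Fos had ratios of -0.55 in papilla, -1.18 in endothelial and -1.48 in all other cells, so the lower Fos level was not limited to fibroblasts. Tsc22d3 had -0.18 in papilla cells, -0.30 in endothelial cells and -1.47 in all other cells. Id1 had -0.22 in papilla cells and -1.75 in endothelial cells. The median depth of papilla cells differed 12266.5 to 3647 UMIs between libraries, and its part in these values was not tested.

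**Figure D3:**
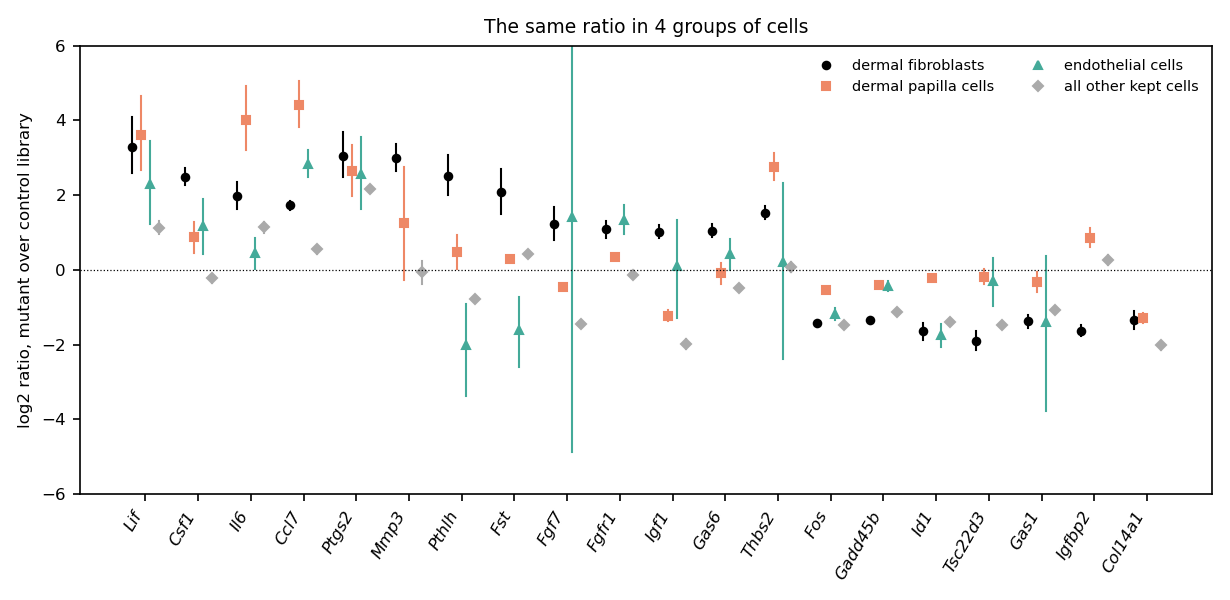
log2 ratio of CPM, mutant over control library, for 20 named genes in dermal fibroblasts (black circles), papilla cells (orange squares), endothelial cells (green triangles) and all other kept cells (grey diamonds); lines are exact 95% intervals, clipped at 6 on either side, and values that could not be formed from a count of 0 are not drawn. Igf1 is at 1.02 in fibroblasts and -1.23 in papilla cells, and Fst at 2.08 in fibroblasts and -1.61 in endothelial cells.

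The fibroblasts were not uniform. Clustered without the genes that had a large ratio and without the genes of the rule, they fell into 13 subclusters, numbered by size and described by the genes with the highest level relative to the other fibroblasts. Subcluster 0 led with Pcsk6, Flrt1 and Klk1b21, of which Pcsk6 and Flrt1 also had a large ratio between the libraries, and had the most collagen, with Col1a1 at 47470 CPM and Col3a1 at 28180 CPM. Subcluster 1 led with Col8a1, Mgp and Eln, subcluster 2 with the BMP antagonist Grem1, Igfbp2 and F13a1, and subcluster 3 with Fmod, Cck and Kera. The red blood cell genes Hbb-bt, Hba-a1, Hba-a2 and Hbb-bs were also among the leading genes of subcluster 1. There Hbb-bs read 14450 CPM, and Hbb-bt was found in 13.6% of cells. Subcluster 3 had Col3a1 at 266 CPM, the lowest of the 13, beside Crabp1 at 3129 CPM and Pi16 at 2227 CPM. Subcluster 4 led with Cemip, Prok2 and Lif, subcluster 7 with Chrm2, Hapln1 and Nrp1, and subcluster 8 with the heat shock genes Hspb1 and Hspa1a. Subcluster 9 led with Ifi205, Cxcl12 and Hpgd, and subcluster 11 with Cxcl5, Cxcl3 and Myoc. Subcluster 10 was dermal sheath-like, with Acta2, Tagln and Acan among its leading genes and Acta2 at 4277 CPM.

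Subclusters 5, 6 and 12 went against the label. Among their leading genes were the melanocyte genes Pmel and Dct, the keratinocyte genes Krt77 and Krtdap, and the lymphocyte genes Rgs1, Xcl1 and Trdc beside their fibroblast genes. They held 60 control and 69 mutant cells, and without them 126 genes were higher and 140 lower. Doublets were kept, because the automatic threshold of the doublet caller marked 0 of 14156 control cells and 412 mutant cells and so had not worked in the control library.

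Subcluster 0 was the largest difference in makeup in percentage points, while subcluster 8 differed more as a ratio. Subcluster 0 held 27 control fibroblasts, 7.99% (5.33 to 11.4), and 122 mutant fibroblasts, 27.2% (23.2 to 31.6). Subcluster 8 held 40 control fibroblasts, 11.8% (8.59 to 15.8), and 8 mutant fibroblasts, 1.79% (0.774 to 3.49). Subcluster 5 held 10.9% and 5.58%, and the intervals of the libraries overlapped there and in each of the other 10 subclusters. At another resolution, with 16 subclusters, subcluster 0 was split: one portion held 2.07% and 20.98% and the other 5.92% and 6.25%. The counterpart of subcluster 8 stayed at 11.8% and 1.79%. With 7 subclusters, the counterpart of subcluster 0 held 18.9% and 35.3%. Clustered with all variable genes, 1 cluster drawn mainly from subcluster 0 held 1.78% and 29.9%, and another, 55.7% of it from subcluster 0, went the other way with 16.6% and 5.13%. With 1 library a group, a subcluster mostly of 1 library cannot be told apart from that library.

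**Figure D4:**
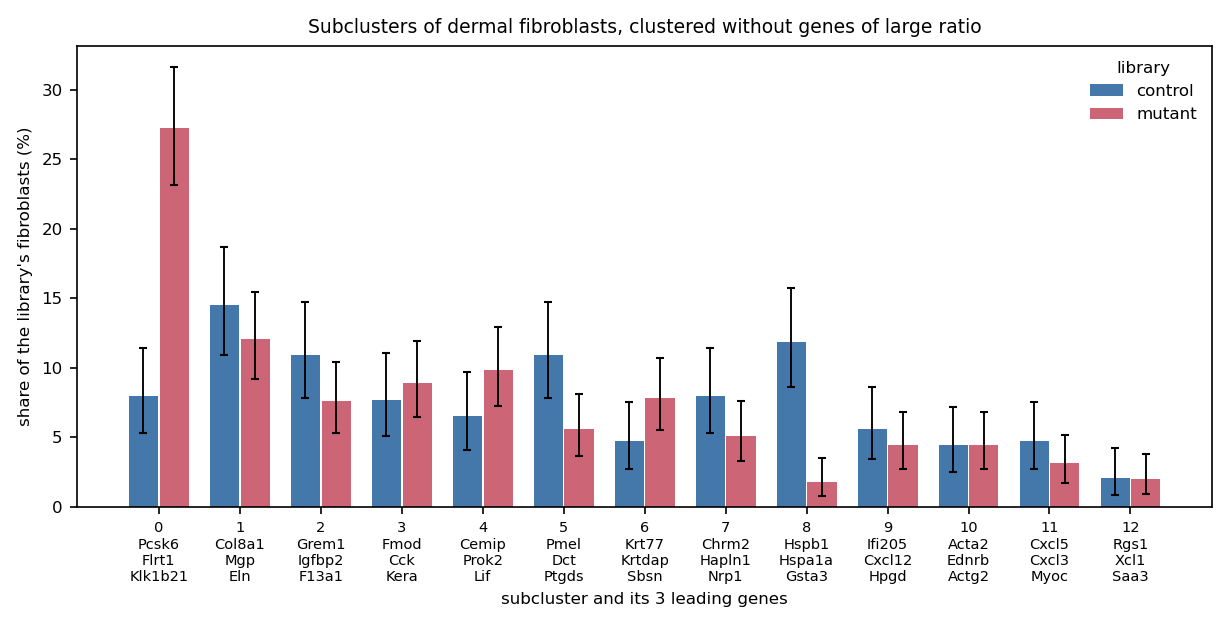
Share of each library's dermal fibroblasts in the 13 subclusters (control blue, mutant red), with exact 95% binomial intervals and the 3 leading genes of each below its number. Subcluster 0 holds 7.99% of control and 27.2% of mutant fibroblasts, and subcluster 8 holds 11.8% and 1.79%.

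Many of the large ratios were also seen between cells of the same subcluster. The subclusters were formed without these genes, so cells high and low in them could share a subcluster. The values below are therefore a description and no separate support. Csf1 was higher in the mutant cells of subcluster 0 (329 and 1392 CPM), subcluster 2 (194 and 1262) and subcluster 9 (124 and 788), and it was at or near 0 in subclusters 3, 7 and 8 of the mutant library. Ccl7 was higher in subclusters 1 (380 and 2322 CPM), 2 (819 and 3118) and 9 (185 and 2164), and differed little in subclusters 7 (157 and 170) and 8 (115 and 112). Mmp3 was centred on subcluster 2, at 169 and 2850 CPM. In the mutant library Il6 was highest in subcluster 11, at 190 and 1841 CPM, and Ptgs2 in subcluster 4, at 43.1 and 838 CPM, whereas in the control library Il6 was highest in subcluster 4, at 215 CPM, and Ptgs2 in subcluster 0, at 50.1 CPM. Lrrtm3 was found mainly in subclusters 0 (21.5 and 328 CPM) and 2 (9.93 and 536 CPM). It was also found in subclusters 5 (0 and 35.1 CPM) and 6 (16.6 and 65.4 CPM), and was at 0 in both libraries in 9 of the 13.

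Id1 was lower in the mutant cells of 8 subclusters by the rule, among them subcluster 1 (473 and 118 CPM), 3 (463 and 104) and 7 (785 and 46.4). It went the other way in subclusters 10 (123 and 304 CPM) and 6 (224.5 and 318). Tsc22d3 was lower in 7 subclusters, such as 2 (328 and 68.2 CPM) and 5 (292 and 41.0). Fos was lower in 8 subclusters, with 1505 and 136 CPM in subcluster 2, but was 1447 and 1463 CPM in subcluster 1 and 1225 and 1358 CPM in subcluster 9. Gadd45b went the other way in subcluster 9, at 607 and 1838 CPM, while it read 2642 and 692 CPM in subcluster 2. Igf1 was higher by the rule in subclusters 0 (365 and 1004 CPM) and 11 (174 and 606). Short of the rule, it was also higher in subclusters 1 (358 and 670 CPM) and 2 (164 and 331). It read 906 and 779 CPM in subcluster 9 and 241 and 172.5 CPM in subcluster 6. Several of these subclusters held under 30 cells in a library, so single cells weigh on their values.

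**Figure D5:**
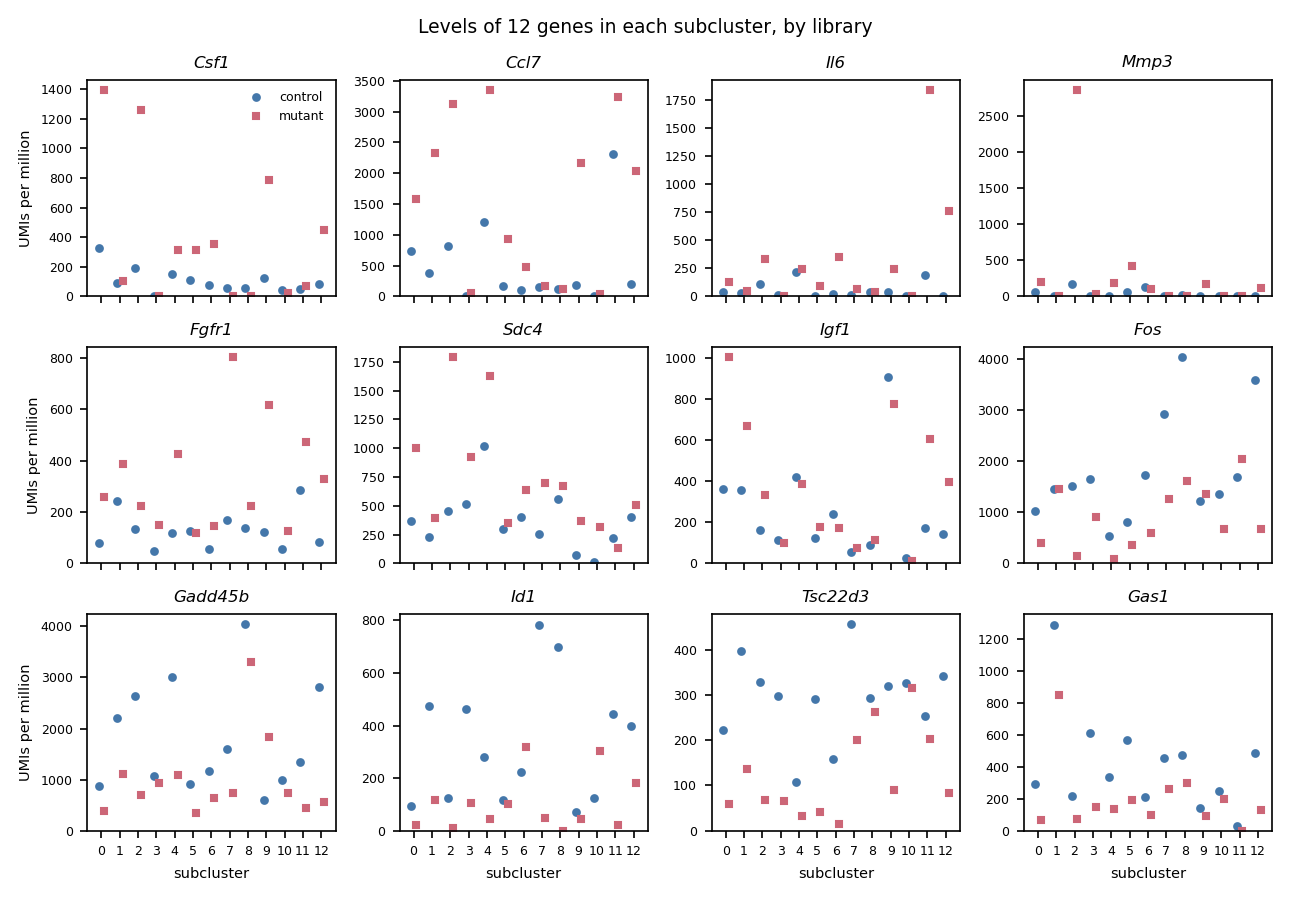
Level in CPM of 12 genes in each of the 13 subclusters of dermal fibroblasts, control library as blue circles and mutant library as red squares, each panel with its own linear axis from 0. Csf1 is highest in the mutant cells of subclusters 0 and 2 (1392 and 1262), and Id1 lies lower in mutant cells of subclusters 1, 3 and 7 (118, 104 and 46.4 against 473, 463 and 785).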

How the data were processed

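Single cells of dorsal skin were captured with 10x Genomics 3' v3 chemistry. The authors deposited raw UMI counts, whole numbers for 31055 features, in 1 matrix for the control and 1 for the mutant group. The matrix headers name Cell Ranger 3.0.2, and the submitters' processing notes list Seurat (3.0.0, 3.1.0) and the mouse build GRCm38, also called mm10. Strand handling is not given in the sources used here, and 17 of the 63 named genes with a large ratio overlap a gene on the opposite strand.

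Cells needed 500 or more genes and no more than 15% mitochondrial UMIs, 14156 of 16973 control and 11455 of 13411 mutant barcodes. Members were chosen by the collagen, papilla and keratin limits, their UMIs were summed per library and divided by the total to give CPM, and log2 ratios carry exact conditional 95% intervals for 2 Poisson counts (scipy 1.17.1). The members, gene lists and rules were chosen with earlier results of these data known. Named are the 15 largest large ratios in each direction without possible free RNA, ribosomal, mitochondrial and unnamed genes, the 4 most abundant compared genes of each list and up to 6 with a large ratio, Fgf5 with its receptors, and the label markers; leading genes of subclusters were named after their values were seen. Papilla cells had at least 4 UMIs of the papilla genes, and endothelial cells at least 3 of Pecam1, Cdh5, Cldn5 and Kdr. Subclusters came from 1000 variable genes, 15 components, 15 neighbours and Leiden clustering at resolution 1 (leidenalg 0.10.2). Doublets were scored with Scrublet (scanpy 1.11.5). Coordinates are those of GENCODE vM21, and promoters those of RefSeq on GRCm38.p6. The ratio function was tested on simulated counts. Alternatives covered scaling (edgeR 4.0.16 for TMM factors), thinning, cell filters, member limits, level minimums and subclusters left out or weighted equally. The values of 1 gene that the naming rule picked are not reported here. UMIs are molecules, but intervals cover counting error only.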

Additional observations from a re-analysis of the deposited data

Results flagged for a closer look

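Fst, which encodes follistatin, and Igf1 had large ratios of opposite sign in fibroblasts and in another group of cells. The log2 ratio of Fst, mutant over control, was 2.08 in dermal fibroblasts and -1.61 in endothelial cells. Igf1 was at 1.02 in dermal fibroblasts and -1.23 in dermal papilla cells. T or NK cells, which should lack Fst, read 45.9 and 63.2 CPM, above control fibroblasts (18.9) and mutant endothelial cells (18.1) and near control endothelial cells (55.2). The difference between cell groups was not tested, since each group of mice was 1 library.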

How the results depend on the processing

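No paired analysis was possible because the samples of each group were pooled in 1 matrix, without a key from cells to samples, and leaving out single samples was not possible for the same reason. Against 126 higher and 132 lower large ratios, TMM factors gave 254 and 61, a level minimum of 20 CPM gave 191 and 279, one of 100 CPM gave 75 and 47, and no minimum with 0.5 added to each sum gave 233 and 397. Lower ratios numbered 80 without subcluster 0 and 83 without subclusters 0 and 8, settings added after the data were seen. Of 63 named genes with a large ratio, 24 kept it under all 17 alternatives and 39 lost it under at least 1; the ratio of Eno1 turned from -1.10 to 0.0 without cells that held markers of other types. That setting left 53 control and 140 mutant cells.

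The fibrillar collagen list includes the 3 collagens that chose the cells. Its median (0.42) was 0.64 with TMM factors, 0.57 in thinned cells, 0.19 with subclusters weighted equally, 0.14 without subcluster 0 and 0.06 without subclusters 0 and 8. For proteoglycans and glycoproteins (0.01) it was 0.23 with TMM factors and -0.22 without subclusters 0 and 8. For chemokines and cytokines (0.45) it was 0.67 with TMM factors, 0.69 without the highest 5% of doublet scores, 0.93 without cells with other markers, 0.94 with equal weights and 0.63 without subcluster 0. For immediate early genes (-0.49) it was -0.28 with TMM factors and -0.28 without subclusters 0 and 8, and for Wnt genes (-0.53) -0.86 without cells with other markers. At resolution 0.5 there were 7 subclusters in place of 13. The cause of these differences was not tested. The share of members kept its direction under all 6 other filters and limits, at log2 ratios of 0.66 to 1.71.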
